A study of Mus musculus with 14 samples.

Results

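Embryonic intestinal epithelium was set against adult intestinal cells for the position, length and relative strength of H2A.Z peaks on chromosomes 1 to 19. The embryonic side consisted of E12.5 and E14.5 small intestinal epithelium, and the adult side of Lgr5+ intestinal stem cells (ISC) and enterocytes at P60, each with 2 chromatin immunoprecipitation sequencing (ChIP-seq) libraries. These are the 8 H2A.Z libraries among 14 samples, the other 6 being input DNA. Overlapping or touching autosomal peaks of the 8 lists were joined into 44109 regions, out of 45028 when all chromosomes are used.

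All mice were of a mixed C57BL/6 and CD1 strain, per the labels. Embryonic cells were sorted as EpCAM+ CD31- CD45- DAPI- cells. The adult cells came from Lgr5EGFP-Cre-ERT males of 2 months, ISC as the cells with high Lgr5-EGFP and enterocytes by the same gate as the embryonic cells. For enterocytes the labels name no marker that would set them apart from other epithelial cells, so their purity is not known. The sex of the embryos is not given, which is a reason to keep to autosomes. Each sort took 250000 cells, fixed beforehand. Duplicates are called biological in the series text, without saying whether these were separate animals or pools. The p-values therefore measure only the spread between these libraries. In the main tests of single regions, which use stage means, this is only the spread between libraries of the same stage.

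H2A.Z is a variant of histone H2A that chromatin remodelers exchange into nucleosomes, typically those that flank the start sites of active or poised genes and those at enhancers. At E12.5 the intestinal epithelium is a proliferating tube that has yet to form crypts and villi. In the adult, Lgr5+ stem cells at the crypt base renew the epithelium, and enterocytes are its absorptive, non-dividing cells. A peak list in bulk cells cannot tell fewer cells with H2A.Z at a site from less H2A.Z per cell.

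Libraries held 27835048 to 41274126 tags, and their lists 5999 to 31376 autosomal peaks. E14.5 replicate 2 and enterocyte replicate 1 stood apart before any comparison. MACS, the authors' peak caller, estimated a fragment size of 71 and 67 bp for them, close to the tag length of 68 bp, against 191 to 247 bp in the other libraries. Their peaks were short, with a median of 238 and 391 bp against 733 to 920 bp, and they broke up shared regions more often. Of the regions with a peak in all 8 libraries, 13.2% held more than 1 peak of E14.5 replicate 2. For enterocyte replicate 1 this share was 24.2%, and for the other libraries 0.301 to 1.51%. The counts that lead each comparison are therefore given with all 8 libraries and with the other 6. In ISC and in enterocytes both libraries were called against 1 shared input, whereas each embryonic library had its own.

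Adult lists were longer on average than embryonic ones, but within the spread between libraries. Among embryonic lists, the E12.5 pair held 25461 and 21661 peaks and the E14.5 pair 16853 and 5999. Among adult ones, the ISC pair held 26299 and 31376 and the enterocyte pair 14113 and 20132. The sides overlapped, with a mean of 22980 ± 7489 adult and 17493.5 ± 8434 embryonic peaks (SD, n = 4 per side; p = 0.400 by a two-sided exact permutation test, 0.571 when adjusted over 5 measures). Covered sequence was 21.3 ± 10.8 Mb in adult and 14.1 ± 9.06 Mb in embryonic libraries (SD, n = 4 per side; p = 0.343 by the exact permutation test, 0.571 when adjusted). Without both short-fragment libraries the median peak length was 920, 818.5 and 836 bp in the adult lists and 797, 738 and 733 bp in the embryonic ones. These 3 adult values all lay above the 3 embryonic ones, with means of 858 ± 54.3 and 756 ± 35.6 bp (SD, n = 3 each). The exact two-sided permutation p was 0.100, the smallest that 3 against 3 allows, and adjusted p was 0.250. With all 8 libraries the difference of 115 bp had an exact permutation p of 0.457, and without E14.5 replicate 2 alone the adult mean was 14.6 bp lower.

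**Figure D1:**
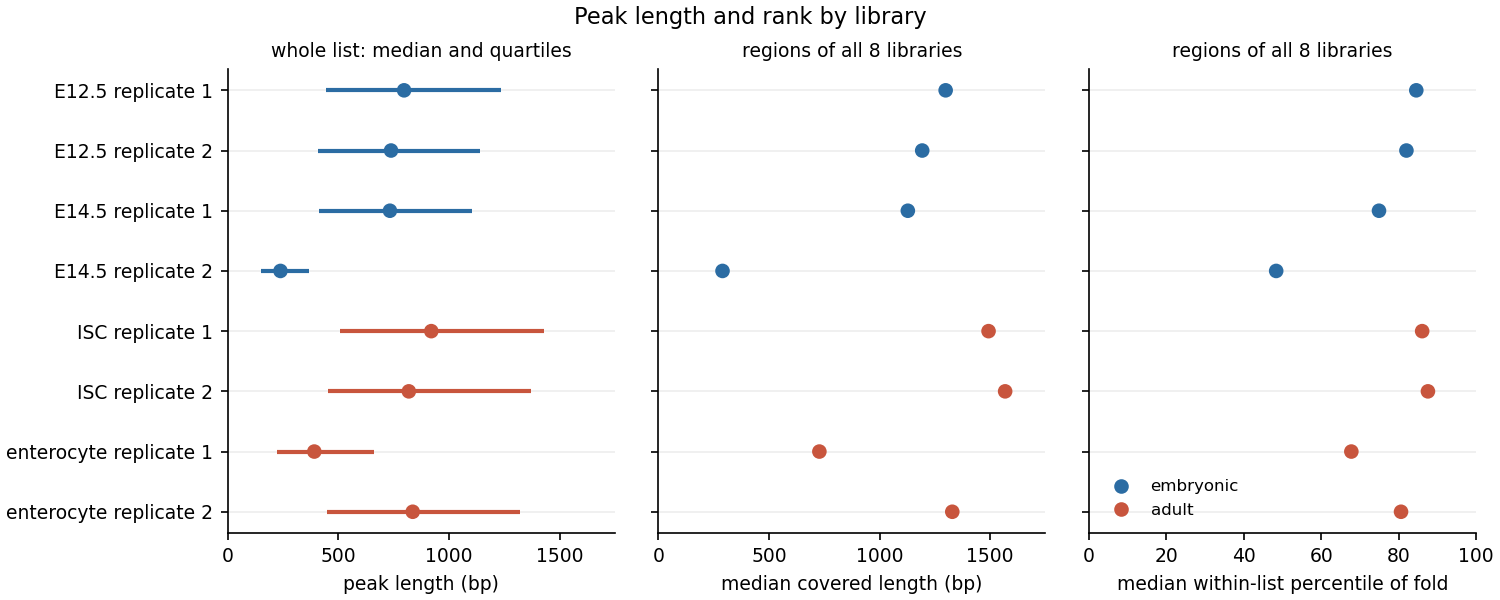
Peak length and rank by library, embryonic in blue and adult in red. The left panel shows the median (point) and quartiles (line) of peak length in bp for all autosomal peaks, the middle panel the median length in bp covered in the 3981 regions of all 8 libraries, and the right panel the median within-list percentile of fold enrichment in those regions. E14.5 replicate 2 and enterocyte replicate 1 have the lowest value of their side in every panel.

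A peak in at least 1 embryonic and at least 1 adult library was found in 20306 of the 44109 regions (46%), and a peak in all 8 in 3981 (9.03%). The 4 adult libraries alone shared 804 regions (1.82%), and the 4 embryonic libraries alone shared 87 (0.197%). More adult than embryonic libraries held a region in 24089 cases, or 54.6% (95% Wilson interval 54.1 to 55.1), and fewer in 12157, or 27.6% (27.1 to 28.0). The intervals give counting error alone and treat regions as independent, which neighbours may not be.

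These counts moved with the 2 short-fragment libraries. Without E14.5 replicate 2 and enterocyte replicate 1, the remaining 44000 regions held 11245 with a peak in all 6 libraries (25.6%) and 20286 with a peak on both sides (46.1%). The 3 adult libraries alone then shared 2751 regions (6.25%), and the 3 embryonic ones alone 821 (1.87%). Leaving out single libraries, the adult count was 2747 without enterocyte replicate 1, while the embryonic one became 821 when E14.5 replicate 2 was left out and 147 when ISC replicate 2 was. With the 5999 strongest peaks of every list, the one-sided regions numbered 272 for adult and 219 for embryonic libraries. More adult libraries then held a region in 39.8% of cases and more embryonic ones in 41.1%, so by this measure the adult side no longer led, while its one-sided count still did. Only the number of peaks was equal there, and the covered sequence still ranged from 1.73 Mb in E14.5 replicate 2 to 9.13 Mb in ISC replicate 1.

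**Figure D2:**
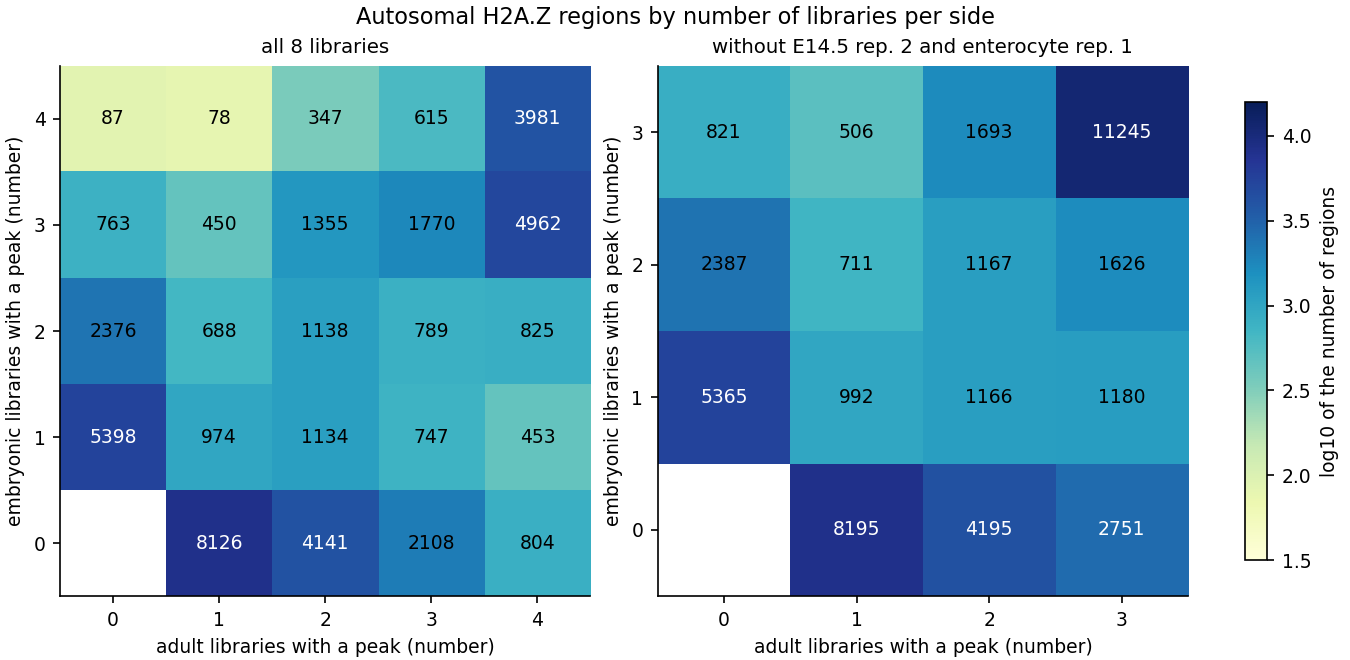
Number of autosomal regions by the number of adult (x axis) and embryonic (y axis) libraries with a peak, with colour on a log10 scale. With all 8 libraries (left) 3981 regions sit in the top right corner and 804 and 87 in the corners of a single side. With 6 libraries (right) these become 11245, 2751 and 821.

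Regions missing from 1 library of a side lacked it mostly in the short lists. Of the 4962 regions with 4 adult and 3 embryonic libraries, E14.5 replicate 2 was the missing one in 4930 (99.4%). Of the 615 regions with 4 embryonic and 3 adult libraries, enterocyte replicate 1 was missing in 611 (99.3%). Regions of all adult and exactly 2 embryonic libraries numbered 825, and in 615 of them (74.5%) these were both E12.5 libraries, against 2 with both E14.5 libraries. In the mirror case, 347 regions of all embryonic and exactly 2 adult libraries, both ISC libraries held 337 (97.1%). Partial presence thus fell mostly on E12.5 and ISC, whose lists were longer than those of E14.5 and enterocytes.

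Presence in the peak lists was graded rather than all or none. Regions are joined from called peaks, so covered length and number of libraries are not independent measures. In the 6 libraries, regions held by all 3 adult libraries became longer and stronger in the adult lists as more embryonic libraries held them. Their median covered length in ISC replicate 1 was 686 bp with no embryonic library, 840 bp with 1, 980 bp with 2 and 1381 bp with 3. The median within-list percentile of fold, where 100 is the strongest peak of a list, went from 34.2 to 41.6, 51.3 and 76.7 in the same library. Enterocyte replicate 2 showed the same order, with percentiles of 29.8, 36.6, 44.3 and 68.8. On the embryonic side, regions of all 3 libraries had a median covered length in E12.5 replicate 1 of 621, 693.5, 874 and 1211 bp with 0, 1, 2 and 3 adult libraries. Percentiles there were 42.3, 47.8, 61.4 and 73.9. E14.5 replicate 1 did not follow this order at its lower end, with percentiles of 38.7, 38.2, 42.0 and 56.4. One-sided regions were thus weaker and shorter in their own lists than regions held by all 6. Peaks that the other side contributed alone were low in its lists as well. In regions of all 3 adult and 1 embryonic library, the embryonic peaks had median percentiles of 22.8 in E12.5 replicate 1, 20.4 in E12.5 replicate 2 and 37.3 in E14.5 replicate 1.

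Some one-sided regions ranked high in every list of their side. These were ordered by the lowest within-list percentile over the 4 libraries, and the values describe the lists and are not tested. The first embryonic one, chr5:37727522-37730300, had percentiles of 95.5 and 90.0 in the E12.5 pair and of 85.9 and 87.8 in the E14.5 pair. It was also long, with 2753 and 1683 bp covered in the former and 1621 and 628 bp in the latter. No adult list held a peak there, although embryonic regions of this kind had a median width of 814 bp. The next, chr7:120438495-120439488, reached 70.4 and 94.1 in the E12.5 libraries and 74.2 and 96.8 in the E14.5 ones. It covered 584 to 858 bp in the 3 libraries of longer fragment size and 158 bp in E14.5 replicate 2. The other 3 were chr6:129130452-129131943, chr8:90467364-90468177 and chr3:121561581-121562451, whose lowest percentiles were 69.3, 68.0 and 67.2.

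On the adult side, chr6:115742104-115743437 came first, with ISC percentiles of 97.7 and 95.5 and enterocyte percentiles of 86.2 and 98.7. Its covered length was 1284 and 1300 bp in ISC and 1015 and 1187 bp in enterocytes, so that here enterocyte replicate 1 was nearly as long as the others. The region chr4:125904299-125905345 followed, at 79.6 to 81.7 in ISC and at least 85.4 in enterocytes. The remaining 3, chr9:14522024-14522963, chr17:36342208-36343414 and chr5:150829171-150830278, had lowest percentiles of at least 74.7. All 10 of these regions stayed on their side when peaks were merged within 500 bp.

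The one-sided regions were spread over the autosomes. The share of regions held by all adult and no embryonic library ranged from 1.13% on chromosome 18 (17 of 1506) to 2.53% on chromosome 17 (47 of 1856). No chromosome held more than 8 of the 87 embryonic regions. Regions of all 4 adult libraries lay within 50 kb of a region of all 8 in 28.5% of cases (25.5 to 31.7), and the embryonic ones in 25.3% (17.3 to 35.3). For regions on both sides but not in all 8 this was 25.2% (24.5 to 25.8). Within 50 kb of another region of their own kind lay 130 of the 804 adult regions and 0 of the 87 embryonic ones, a number that depends on how many there are.

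The order of shared regions differed between embryonic and adult libraries. In the 3981 regions of all 8 libraries, each library's fold enrichment was ranked over these regions only, so that all 8 rankings had the same length. The rank percentile used from here on is 100 for the highest fold. Ranks were turned into normal scores, a scale on which 1 is 1 SD of the ranking, and the mean of ISC and enterocytes was compared with that of E12.5 and E14.5 by limma's moderated test. With Benjamini-Hochberg adjustment at 0.05, 190 regions ranked higher in adult (4.77%) and 177 higher in embryonic libraries (4.45%). The 4 adult values did not overlap the 4 embryonic ones in 127 of the 190 and 115 of the 177, and in 438 of all regions tested (11%). Both adult stage means lay above both embryonic ones in 180 of the 190, and below in 163 of the 177. Over all 3981 regions this was so in 778 and 772, and the called ones were chosen by these same means.

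Regions that ranked higher in adult cells had a median percentile of 32.8 and 28.3 in the E12.5 and 26.1 and 18.7 in the E14.5 libraries. The ISC medians were 89.3 and 90.0, the enterocyte ones 83.0 and 88.4. In the opposite direction the medians were 70.5 and 78.8 at E12.5, 79.8 and 78.4 at E14.5, 17.0 and 19.2 in ISC and 13.0 and 11.9 in enterocytes. These medians describe regions chosen by the same values.

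The number of calls depended on the libraries and on the model. With the 6 libraries and the 11245 regions they share, 437 regions ranked higher in adult (3.89%) and 398 higher in embryonic libraries (3.54%). There the lone E14.5 and enterocyte libraries are assumed to vary like the E12.5 and ISC pairs. All 190 and all 177 regions called with 8 libraries kept their direction with 6, and 81 of the 190 and 73 of the 177 were called again. The 6 libraries are among the 8 whose values chose these regions, so this is no independent support. Without a stage term, so that differences between the stages of a side count as spread, 39 and 30 regions remained, all of them among the calls above. Leaving out single libraries of all 8 gave 12 and 5 calls without ISC replicate 1, 12 and 16 without enterocyte replicate 2, 28 and 24 without ISC replicate 2, and 61 and 44 without enterocyte replicate 1. Of the embryonic libraries, E12.5 replicate 2 left 91 and 85 calls when dropped, E14.5 replicate 1 gave 294 and 294, and E14.5 replicate 2 gave 265 and 277. The first number is that of regions higher in adult.

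Fold enrichment and pileup called partly different regions. MACS divides the pileup, the fragment coverage of a peak, by a local background to obtain the fold. Ranked by pileup in the same way, 211 of the 3981 regions were higher in adult and 276 higher in embryonic libraries. Among them were 44 of the 190 adult and 44 of the 177 embryonic calls by fold. These were 23.2% and 24.9% of the calls by fold and 20.9% and 15.9% of those by pileup. The direction by pileup was the same in 175 of the 190 and 149 of the 177. A matching share over all 3981 regions is not given here. Ranked by −log10 p, 186 of the 3981 regions were higher in adult and 193 higher in embryonic libraries. Among them were 133 and 123 of the calls by fold. All 3 measures come from the same peaks. The shared inputs of the adult stages enter fold and −log10 p, and their part in the difference was not tested. As both libraries of an adult stage share its input, their spread holds no variation between inputs. The p-values by fold and by −log10 p may therefore be too small. Only adult stages share inputs, so this cannot be told apart from the side.

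**Figure D3:**
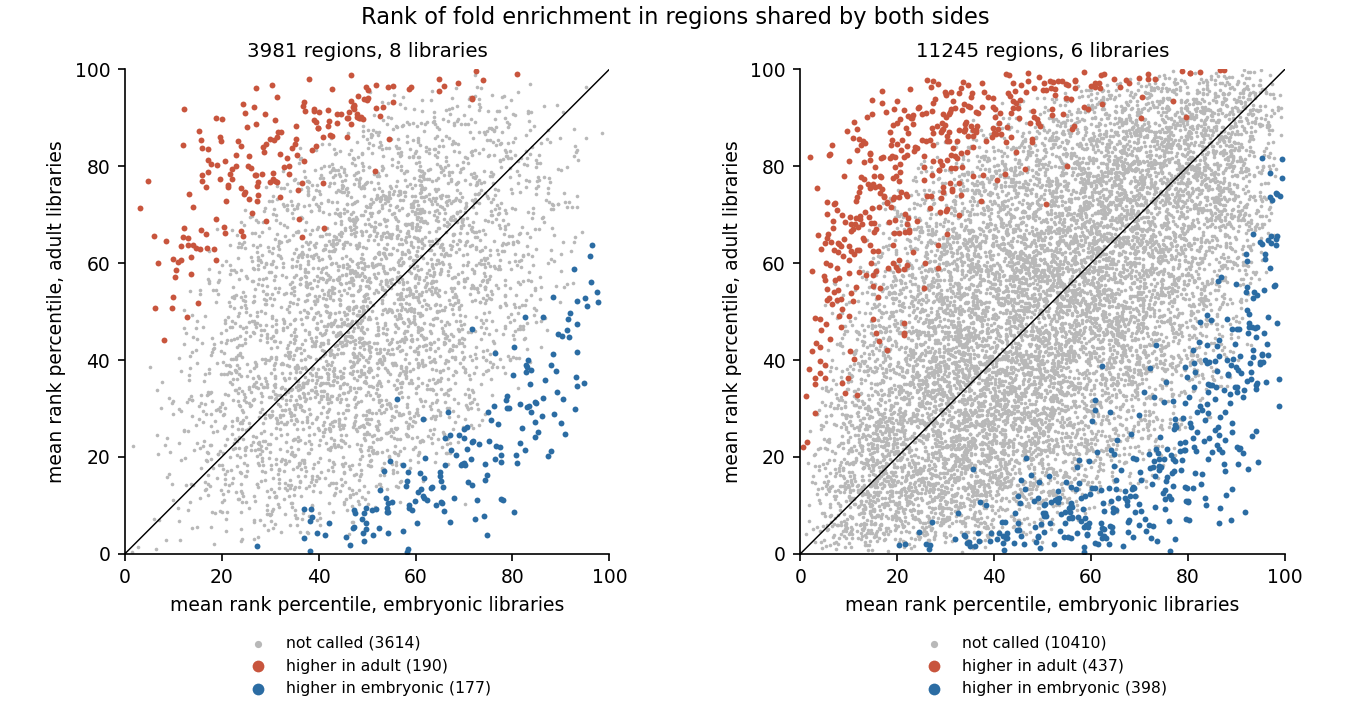
Mean rank percentile of fold enrichment in adult (y axis) against embryonic (x axis) libraries, for the 3981 regions of all 8 libraries (left) and the 11245 regions of 6 libraries (right). Each point is a region, coloured where limma's adjusted p was under 0.05. The 190 and 437 regions higher in adult lie above the diagonal, and the 177 and 398 higher in embryonic libraries below it.

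The 5 regions with the largest rank difference in each direction whose sides did not overlap are given as A1 to A5 and E1 to E5. A1, chr8:125074283-125075706, had rank percentiles of 2.95 and 33.0 at E12.5, 4.38 and 8.20 at E14.5, 93.7 and 95.4 in ISC, and 81.1 and 96.8 in enterocyte libraries. This was low in every embryonic and high in every adult library, a difference of 2.84 ± 0.445 (SE) on the normal score scale (limma adjusted p = 0.00459). Its covered length overlapped between the sides, at 899 to 1234 bp in the 3 embryonic and 1060 to 1355 bp in the 3 adult libraries of longer fragment size. By pileup its percentile averaged 52.2 in embryonic and 82.7 in adult libraries (adjusted p = 0.0543).

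A2, chr11:98009899-98011887, stood at 71.0 and 71.7 at E12.5, 5.94 and 3.30 at E14.5, 99.8 and 95.6 in ISC and 98.6 and 98.0 in enterocytes. Here the E12.5 libraries lay far above those of E14.5, though still below every adult one. By pileup, A2 was high in all 8 libraries, with means of 94.5 and 99.1 (limma adjusted p = 0.0899). It was not called with 6 libraries and no stage term either (adjusted p = 0.0555). A3, chr2:4801608-4804598, ranked 19.8 and 23.7 at E12.5, 42.5 and 11.9 at E14.5, and 77.5 to 99.6 in the adult libraries. Its pileup did not pass the test (limma adjusted p = 0.329).

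A4, chr4:12833111-12834950, had percentiles of 7.67 and 12.2 at E12.5, 77.9 and 24.1 at E14.5, 98.6 and 98.7 in ISC, and 92.2 and 97.9 in enterocyte libraries. The region was called by pileup too, at means of 36.5 and 80.3 (limma adjusted p = 0.0161), and under all 18 alternatives computed. A5, chr6:48394077-48396436, was at 0.565 to 5.84 in the embryonic libraries and at 60.8 to 89.0 in the adult ones. In every embryonic library it was thus among the lowest of the 3981 shared regions, which are themselves mostly in the upper part of the longer lists. By pileup it did not pass the test (limma adjusted p = 0.0621). It was longer in ISC, 2249 and 2186 bp, than at E12.5, 1590 and 889 bp. Its length was 1039 and 279 bp at E14.5 and 917 and 1524 bp in enterocytes, so the sides overlapped.

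E1, chr11:21471097-21472938, had the largest difference in the embryonic direction, 3.08 ± 0.401 (SE; limma adjusted p = 0.00161). Its E12.5 percentiles were 51.3 and 34.0, its E14.5 percentiles 80.5 and 66.9, and it stood at no more than 0.615 in any adult library. By pileup the difference was small, with means of 19.7 and 14.3 (adjusted p = 0.792). E2, chr12:80308825-80310697, ranked 59.1 and 79.8 at E12.5, 87.6 and 94.4 at E14.5, 0.239 and 27.8 in ISC and 3.83 and 2.47 in enterocytes. E2 was called by pileup (limma adjusted p = 0.0376), but not without ISC replicate 1 (adjusted p = 0.0565) or without enterocyte replicate 2 (adjusted p = 0.0503).

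E3, chr1:134929335-134930565, ranked 44.9 and 84.2 at E12.5, 81.8 and 88.3 at E14.5, and 0.741 to 7.75 in the adult libraries. It reversed by pileup, where the adult mean of 68.0 lay above the embryonic one of 39.1 (limma adjusted p = 0.152). E4, chr10:9394123-9397649, was at 26.5 to 85.8 in the embryonic and 0.414 to 1.72 in the adult libraries. It kept its call by pileup, with means of 62.3 and 8.34 (limma adjusted p = 0.00142), and under all 18 alternatives. In ISC it nevertheless covered more sequence, 3261 and 2484 bp, than at E12.5, 1874 and 1647 bp. At E14.5 it covered 1352 and 602 bp, and in enterocytes less than in any embryonic library, 271 and 255 bp. E5, chr14:37781213-37783371, ranked 98.2 and 94.2 at E12.5, 86.2 and 73.4 at E14.5, 54.0 and 25.1 in ISC and 4.99 and 0.440 in enterocytes. Its order thus ran from E12.5 over E14.5 and ISC to enterocytes, and by pileup it did not pass the test (limma adjusted p = 0.0572). Of the 10 regions, A4, E2 and E4 were called both by fold and by pileup.

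**Figure D4:**
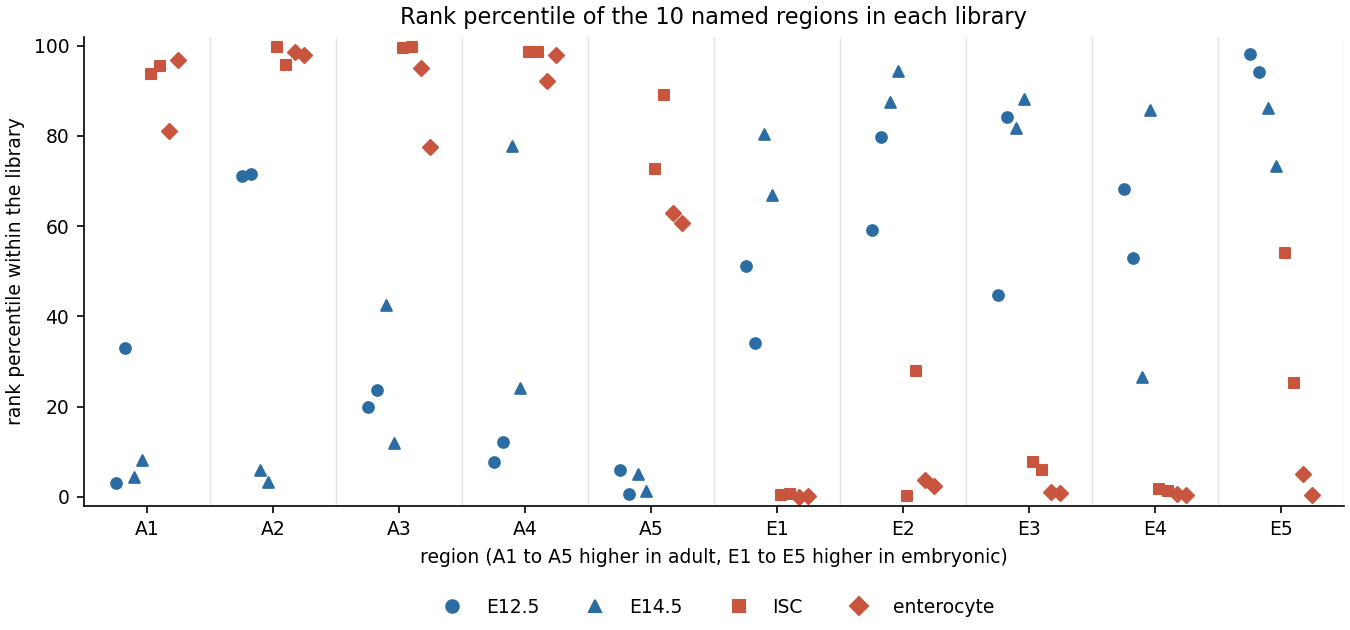
Rank percentile within each library (y axis, 100 highest) of the 5 regions with the largest rank difference per direction, embryonic libraries in blue and adult ones in red, with a marker shape per stage. A1 to A5 have all adult points above all embryonic ones and E1 to E5 the reverse. In A2 the E12.5 points lie at 71.0 and 71.7 and the E14.5 points at 5.94 and 3.30.

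Length was compared in the same regions as log2 of the bp that a library's peaks covered. Without centring, adult libraries covered 0.53 more on the log2 scale in the median region of all 8, and 0.28 more in that of the 6, so each library was centred on its median and the test is of relative length. No region of the 3981 passed limma's adjusted threshold with all 8 libraries in either direction (0%). At an unadjusted p under 0.05 there were 521 (13.1%), and the smallest adjusted p was 0.0772. The sides did not overlap in 401 regions (10.1%), 149 of them relatively longer in adult (3.74%) and 252 in embryonic libraries (6.33%).

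With 6 libraries, 780 of the 11245 regions were relatively longer in adult (6.94%) and 809 in embryonic libraries (7.19%). Without centring these were 1586 (14.1%) and 333 (2.96%), the share of adult calls going from 49.1% to 82.6%. Without a stage term, centred, they were 128 and 49. With all 8 libraries, leaving out E14.5 replicate 1 gave 454 and 435 calls in the 3981 regions, leaving out enterocyte replicate 2 gave 3 and 44, leaving out E14.5 replicate 2 gave 3 and 3, and leaving out any of the others 0.

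The regions relatively longer in adult cells had a median covered length of 1701 and 1711 bp in ISC and 1520.5 bp in enterocyte replicate 2. In the embryonic libraries they covered 984.5 and 849.5 bp at E12.5 and 427 bp in E14.5 replicate 1, where all tested regions had 1211, 1067 and 934 bp. Regions relatively longer in the embryo covered 1342 and 1232 bp at E12.5 and 1044 bp in E14.5 replicate 1, against 1115 and 1143 bp in ISC and 479 bp in enterocyte replicate 2. In each direction the lone library of a stage, E14.5 replicate 1 or enterocyte replicate 2, was the one farthest below its median over all regions. As these regions were chosen by these values, the medians describe the calls and are no further support.

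**Figure D5:**
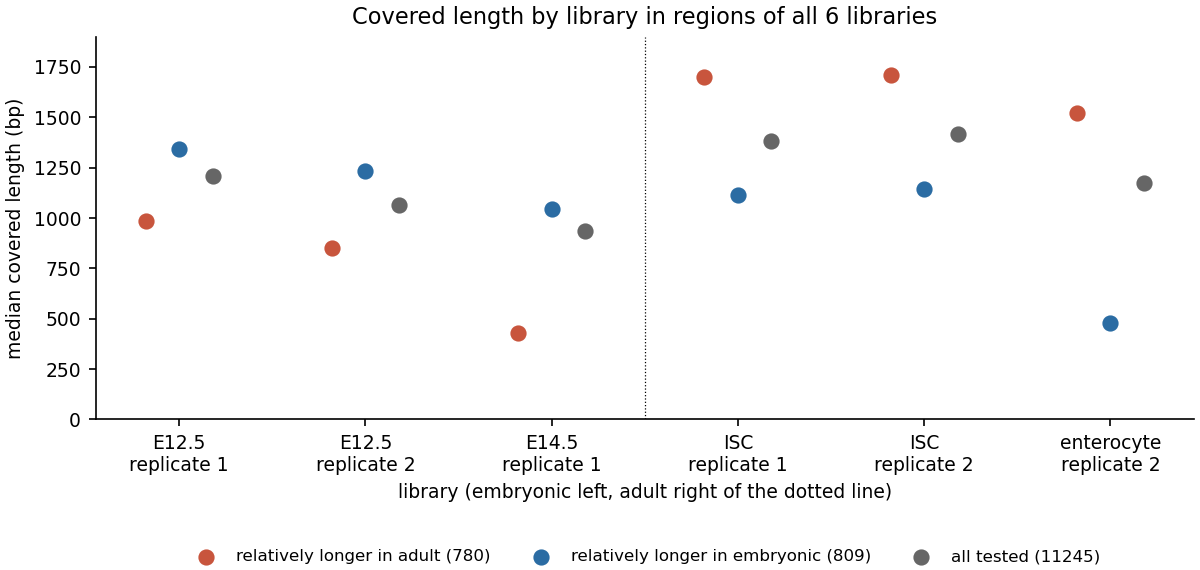
Median covered length in bp (y axis, from 0) in each of the 6 libraries (x axis) for regions relatively longer in adult (red, 780), relatively longer in embryonic libraries (blue, 809) and all 11245 tested (grey). The lowest red point is E14.5 replicate 1 at 427 bp and the lowest blue point enterocyte replicate 2 at 479 bp.

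The 3 regions with the largest relative length difference per direction with 6 libraries were chosen after their values were seen. The region chr12:25779566-25786164 covered 430 and 634 bp at E12.5 and 258 bp in E14.5 replicate 1. It covered 6599 and 5652 bp in ISC and 3634 bp in enterocyte replicate 2, a relative length 10.3-fold higher in adult (limma adjusted p = 0.0189). The sides were far apart in it, and its rank percentile also went from at most 6.42 in the embryonic to at least 32.0 in the adult libraries. The region chr11:118914518-118920582 covered 1444, 548 and 634 bp in the same 3 embryonic libraries and 5096, 3684 and 5700 bp in the adult ones. The third, chr2:72833451-72836098, went from 278 to 394 bp in these 3 embryonic libraries to 1976 to 2648 bp in the 3 adult ones. In the left-out enterocyte replicate 1 the 3 regions covered 1208, 681 and 105 bp, in the order given here. The last of these lay below every listed embryonic value. The left-out E14.5 replicate 2 covered 0 bp in each.

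In the other direction, chr5:65038490-65040185 covered 1686 and 1602 bp at E12.5 and 1403 bp in E14.5 replicate 1. The adult values were 440 and 443 bp in ISC and 214 bp in enterocyte replicate 2, a relative length 6.14-fold higher in the embryo (limma adjusted p = 0.0189). Its adult peaks were short and ranked at 1.65 to 13.0, and its embryonic ones at 18.4 to 56.9. For chr9:72654045-72656269 the values were 2225, 1714 and 1485 bp in the embryo against 564, 480 and 264 bp in the adult. The region chr18:14127961-14131987 covered 3112 to 3563 bp in the 3 embryonic libraries. It covered 1953 and 3161 bp in ISC and 211 bp in enterocyte replicate 2, so that there the difference lay mainly in enterocytes. In the left-out E14.5 replicate 2 the 3 regions covered 109, 965 and 947 bp, in the order given here. The first of these lay below every listed adult value. The left-out enterocyte replicate 1 covered 0 bp in each.

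With all 8 libraries the smallest p in the embryonic direction belonged to chr15:26824438-26826768. It covered 1767 and 2302 bp at E12.5, 1597 and 711 bp at E14.5, 868 and 701 bp in ISC and 210 and 416 bp in enterocytes (limma adjusted p = 0.0772). E14.5 replicate 2 was within the range of the ISC libraries there, while its median over all 3981 regions was 290 bp. In the adult direction it was chr17:80605667-80607490, with 451 and 483 bp at E12.5, 487 and 147 bp at E14.5, 1741 and 1548 bp in ISC and 1063 and 1558 bp in enterocytes (limma adjusted p = 0.103). Each of the 4 adult libraries covered more than every embryonic one. The others relatively longer in adult were chr13:33095220-33097376 and chr17:3081803-3085119. Those relatively longer in the embryo were chr1:134929335-134930565, which is E3, and chr16:21643906-21645481. None of them passed, with limma adjusted p of 0.103 to 0.112. In chr16:21643906-21645481 the sides overlapped. It covered 621 to 1556 bp in the embryonic libraries, 1160 and 1491 bp in ISC, and 104 and 237 bp in enterocytes.

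Rank and relative length moved together only in part. Across the 11245 regions, which are not independent, the Spearman correlation of the rank and length differences was 0.266, and across the 3981 it was 0.275. Of the 437 regions that ranked higher in adult with 6 libraries, 307 (70.3%) were relatively longer in adult and 60 were called so, against 3 called longer in the embryo. Of the 398 that ranked higher in the embryo, 92 (23.1%) were relatively longer in adult, and 103 were called longer in the embryo against 16 in adult. Over all regions 46.8% were relatively longer in adult. Both measures come from the same peaks, so they do not support each other independently.

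With 6 libraries, those of different sides differed more than the E12.5 and ISC replicates did, and little more than stages of a side. Between 2 libraries of a stage the median absolute difference in rank percentile over the 11245 regions was 17.4 for E12.5 and 8.82 for ISC, whose libraries share an input. It was 16.7 to 21.3 between stages of a side and 20.1 to 24.3 across sides. For relative length it was 0.19 and 0.14 log2 within E12.5 and ISC, 0.26 to 0.29 between stages of a side and 0.25 to 0.39 across sides. The Spearman correlation of ranks was 0.529 and 0.854 within these stages, 0.362 to 0.573 between stages of a side and 0.231 to 0.404 across. With all 8 libraries, E14.5 replicate 2 had correlations of -0.06 to 0.10 with every library outside its stage. With E14.5 replicate 1 its correlation was 0.225, so its ranking held little in common with the others. The E14.5 replicates were thus less alike in rank than some libraries across sides, such as E12.5 replicate 1 and ISC replicate 1 (0.291). The other replicate pairs, at 0.427 to 0.836, were above every across-side value.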

How the data were processed

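Each H2A.Z library has 1 deposited peak list. Per the file headers, the authors ran MACS version 2.1.0.20140616 against input DNA with broad calling, a q-value limit of 0.05 and model folds between 10 and 30. Named in the submitters' processing notes are bcl2fastq 1.8.4, Bowtie 1.1.2, SAMtools 1.2 and build mm9. Pileup is a coverage signal, fold enrichment a ratio to local background, and −log10 p and −log10 q the evidence, all written by the authors' MACS run per the file headers. These are values of single peaks and were used only to rank or filter within a list.

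From the lists, autosomal peaks overlapping by 1 bp or touching were merged. Covered length is the sum of a library's peak lengths in a region, and its fold that of the highest peak. Tests were limma 3.58.1 (R 4.3.3; stage means, Benjamini-Hochberg at 0.05) across regions and exact two-sided permutation tests over libraries (scipy 1.17.1). These exchange libraries singly and ignore stages. In simulated data with 200 of 3981 regions shifted by 2 units, 75.5% were recovered for rank and 98.5% for length. For shifts of 1 unit it was 0.5% and 10.5%. A unit is 1 SD of the ranking for rank and 1 on the log2 scale for length. The simulated noise of a library had the same spread in every region. Real regions need not share a spread, so these shares do not give the power of the real tests.

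Regions were named by fixed rules: the 5 largest rank differences per direction among called regions whose sides did not overlap, for length the 3 smallest p, and the 5 one-sided regions per side with the highest lowest percentile. The 6 regions given for length with 6 libraries follow none of these rules: they have the largest relative differences among calls and were chosen after their values were seen. The comparison and its settings were chosen with earlier results of these data known. Gene positions of mm9 were not used here, so regions carry coordinates only. Alternatives were other merging, filters, list lengths, rank measures, models and left-out libraries.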

Additional observations from a re-analysis of the deposited data

Results flagged for a closer look

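A gap test within each side of 4 libraries, applied to 46 groups, set 8 values apart. Its nominal rate is about 1 group in 20. The groups are not independent, as several describe the same libraries and others are regions chosen by their values. The 8 can therefore not be weighed against that rate. E14.5 replicate 2 stood below the other embryonic libraries in median peak length, 238 bp against 733 to 797 bp, and in median covered length of shared regions, 290 bp against 1128 to 1299 bp. It stood above them in peaks per shared region, 1.14 against 1.01 to 1.02, and in the share of its list that lay in regions of all 8 libraries, 75.5% against 15.8 to 24.0%. The other value apart was that of enterocyte replicate 1, with 1.26 peaks per shared region where the remaining adult libraries had 1.00 to 1.01.

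Among the named regions, the rank percentile of A4, chr4:12833111-12834950, was lowest in enterocyte replicate 1, at 92.2, with the remaining adult values between 97.9 and 98.7. That of E2, chr12:80308825-80310697, was 27.8 in ISC replicate 2 and 0.239 to 3.83 in the others. For E3, chr1:134929335-134930565, it was 44.9 in E12.5 replicate 1 and 81.8 to 88.3 in the other embryonic libraries.

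Outside the comparison, 3561 peaks of the 8 lists lay on chromosomes X, Y and M and were not analysed here.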

How the results depend on the processing

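Counts below give adult-higher before embryonic-higher regions. The rank calls, 190 and 177, were 39 and 30 without a stage term, 81 and 79 without both short-fragment libraries in the same regions, 437 and 398 in the regions of the other 6, and 142 and 113 there without a stage term, an alternative chosen after seeing the data. They were 211 and 276 by pileup, and 12 to 294 and 5 to 294 over the 8 fits that left out 1 library. The length calls, 0 and 0 with all 8 libraries, were 167 and 132 without both in the same regions, 780 and 809 in the regions of the other 6, 128 and 49 there without a stage term, 1586 and 333 there without centring (both chosen after seeing the data), and 10 and 7 by normal scores. Leaving out 1 library gave 0 to 454 and 0 to 435. The cause of these changes was not tested.

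One-sided regions, 804 and 87, were 2751 and 821 without both short-fragment libraries, 272 and 219 with equal lists, 214 and 12 where peaks had to cover 50% of the region, and 0 and 0 at a −log10 q of at least 10. Enterocyte replicate 1 holds no peak that strong, so no fit was made at that filter. Leaving out 1 library gave 807 to 2747 and 87 to 821. The difference in median peak length was -14.6 bp without E14.5 replicate 2. The difference in peaks per region of all 8 libraries, 0.025 in adult over embryonic, was -0.0062 without both short-fragment libraries and -0.037 without enterocyte replicate 1. Over the fits without 1 library the differences were 1655 to 8442 peaks, 3.08 to 11.96 Mb, -14.6 to 232 bp in median length, 72.8 to 486 bp in covered length and -0.037 to 0.056 in peaks per region.

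The rank difference of chr1:134929335-134930565 became 0.76 by pileup. Among the 180 other-setting values of the 10 named rank regions, 170 kept their call. Most of these settings refit the values by which the regions were chosen, so this is no independent support. By pileup only A4, E2 and E4 kept it. With the replicate block the calls were 200 and 204 for rank and 0 and 0 for length. Deviations of same-numbered libraries correlated between -0.06 and 0.05 for rank and -0.11 and 0.03 for length. These values show little shared deviation, but cannot tell whether same-numbered libraries were paired in the experiment, which stays unknown. Depth was 27835048 tags in E14.5 replicate 2, the lowest, which had the shortest list. Enterocyte replicate 2 had the most tags, 41274126, and 20132 autosomal peaks, while ISC replicate 1 had 31507399 tags and 26299 peaks. The part of depth in list length was not tested.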
